A study of Mus musculus with 6 samples.

Results

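The interleukin-1 (IL-1) family signals tissue injury and infection in barrier organs. The 10 genes described here encode its ligands Il1a, Il1b, Il18 and Il33, the antagonist Il1rn, the receptor chains Il1r1, Il1rap, Il1rl1 and Il18r1, and the decoy receptor Il1r2. They were taken by gene symbol from the 55401 gene IDs of the series, and all 10 were found and passed the filter on low values, at least 1 FPKM in at least 3 libraries. FPKM relate a gene's fragments to its length and to the size of the library. Levels can thus be compared between genes, but only as far as the length used, which is not stated, is apt. RNA came in bulk from cells isolated from the lamina propria of the colon, the connective tissue layer beneath the epithelium. All mice were male Apc Min/+ animals aged 5 to 6 weeks. The Min allele truncates the tumour suppressor Apc, and carriers develop intestinal adenomas. Of the 6 libraries, 3 were from mice given atorvastatin by gavage at 20 mg/kg on alternate days, and 3 were from mice gavaged with the vehicle, 2% Tween 80. Atorvastatin inhibits HMG-CoA reductase, the rate-limiting enzyme of cholesterol synthesis. Whether each library stands for its own animal is not in the labels, so p-values reflect the library-to-library spread alone, and that spread may be technical.

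IL-1 alpha and IL-1 beta bind the same receptor, IL-1R1, which then recruits the accessory protein encoded by Il1rap and signals through MYD88 and IRAK kinases to NF-kB. The pathway is held back by the IL-1 receptor antagonist, which occupies IL-1R1 without signalling, and by IL-1R2, which binds ligand but lacks the intracellular domain needed to signal. IL-33 acts through ST2, encoded by Il1rl1, and IL-18 through a receptor of which Il18r1 encodes the ligand-binding chain. IL-1 beta and IL-18 are made as precursors that caspase-1 cleaves in the inflammasome. In the gut, IL-1 beta is known chiefly as a product of myeloid cells, IL-33 of fibroblasts and endothelial cells, and IL-18 of the epithelium as well as of macrophages. None of these protein-level steps is read by RNA levels.

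Atorvastatin libraries had a lower level of Il1b, a lower level of the decoy receptor gene Il1r2 and a higher level of the signalling receptor gene Il1r1 than vehicle libraries. The ratio of Il1r2 to Il1r1 was 0.541 ± 0.144 in the atorvastatin libraries and 0.986 ± 0.0826 in the vehicle libraries (SD, n = 3 each), with no overlap between the groups. The ratios of Il1b to Il1rn and of Il1a to Il1b overlapped, and no share over other gene pairs is given. None of the 10 genes passed the test over all genes: in limma on log2(FPKM + 1), with Benjamini-Hochberg adjustment at a false discovery rate of 0.05, 0 of the 10 family genes and 0 of 13590 tested genes passed (0% called). At an unadjusted p under 0.05 in limma, 3 of the 10 passed, 2 lower and 1 higher with atorvastatin, against 7.17% of all tested genes. That count of 3 was 0 without atorvastatin library 3 or without vehicle library 1, 1 without atorvastatin library 1 or vehicle library 3, and 2 without library 2 of either group. In 2 of the 10 the groups did not overlap, both lower with atorvastatin, against 14.4% of all tested genes (8.85% lower and 5.53% higher). The other 7 genes differed by between -0.28 and 0.12 on the log2(FPKM + 1) scale, and their 95% intervals included 0.

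Il1b was by far the most abundant of the 10 genes. Averaged over the 6 libraries it had 150.5 FPKM, followed by Il1r1 (21.9), Il33 (17.4), Il1r2 (15.5), Il1rn (10.1), Il18r1 (7.64), Il1rl1 (6.91), Il1a (4.77), Il18 (3.81) and Il1rap (2.09). The lowest value of Il1b lay above the highest of Il1r1, and the lowest of Il18 lay above the highest of Il1rap. At every other step of that order the ranges of neighbouring genes overlapped. By these FPKM Il1rap, the chain shared by the IL-1 and IL-33 receptors, was the least abundant member in this mixture of cells. That place depends on the gene length used for FPKM, which is not stated. For Il1rap the longest transcript has 4520 nt and all annotated exons together 11360 nt, against 885 and 1031 nt for Il18. Whether Il1rap would stay last on another length was not tested.

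**Figure D1:**
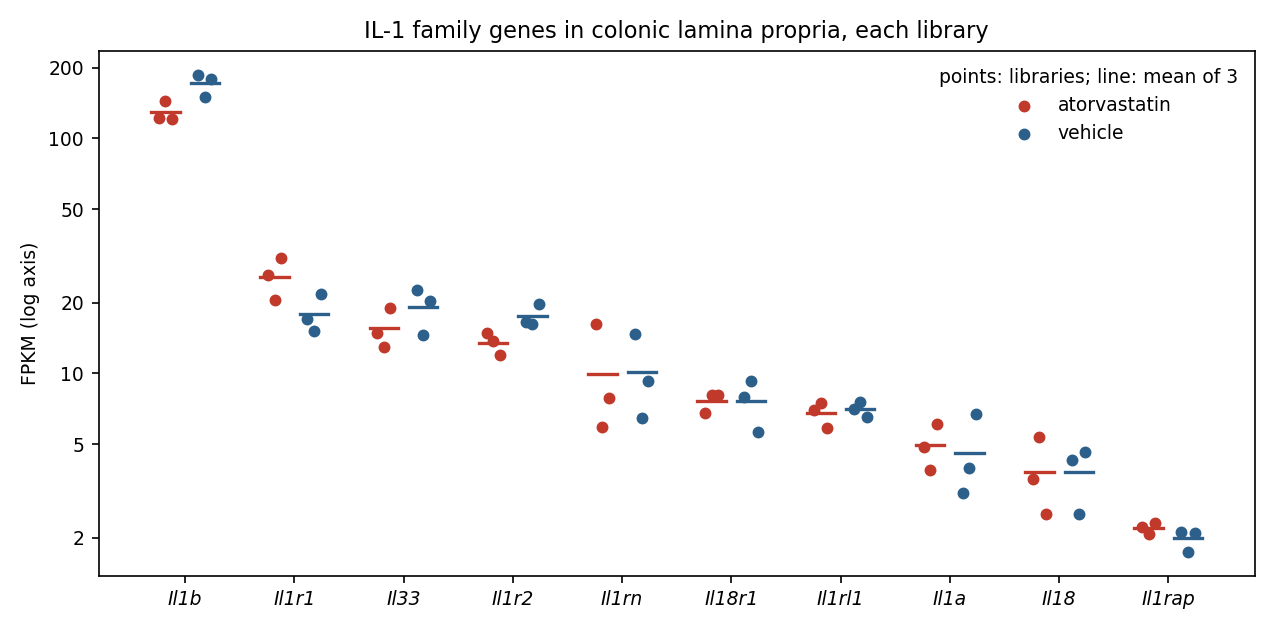
FPKM (log axis) of the 10 IL-1 family genes in each of the 3 atorvastatin and 3 vehicle libraries, with a line at each group's mean. The groups do not overlap in Il1b and Il1r2, where the atorvastatin libraries are lower, and Il1r1 has its 2 highest values with atorvastatin.

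Of the ligands, Il1b (ENSMUSG00000027398, mm10 chromosome 2, 129364570 to 129371139, minus strand) had 122, 144 and 121 FPKM in the atorvastatin libraries, against 187, 149.98 and 179 FPKM in the vehicle libraries. Every atorvastatin value was below every vehicle value, though atorvastatin library 2 and vehicle library 2 lay close together. The difference of log2(FPKM + 1) was -0.41 (SE 0.157, 95% interval -0.78 to -0.04), with an unadjusted p of 0.0350 and an adjusted p of 0.693 in limma. In linear terms the mean with atorvastatin was 0.75 times that with vehicle. Ranked by p, Il1b stood at place 647 of 13590. With each library scaled to the same sum of FPKM the difference was -0.34 and its unadjusted p 0.152.

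Il1a, which encodes IL-1 alpha, an alarmin active without caspase-1, lies beside Il1b on chromosome 2 (129299610 to 129309972) at a distance of 54597 bp and on the same strand. It had 4.84, 3.89 and 6.10 FPKM in the atorvastatin libraries, against 3.11, 3.94 and 6.72 FPKM in the vehicle libraries. The groups overlapped over most of their range, and the lowest and the highest value were both in vehicle libraries. Its difference was 0.12 (SE 0.256, adjusted p = 0.916 in limma). The ratio of Il1a to Il1b was 0.0398, 0.0270 and 0.0503 in the atorvastatin libraries, against 0.0166, 0.0263 and 0.0375 in the vehicle libraries, so that Il1b exceeded its neighbour by more than an order of magnitude in each library and the groups overlapped. Antisense transcripts overlap exons of both genes in the GENCODE annotation (Il1bos for Il1b, Gm14023 for Il1a), and the sources used here do not state whether counting used strand, so their reads cannot be told apart from those of the 2 genes.

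The promoters of this adjacent pair are shown because the 2 genes differed so widely in level. They are the 250 bases before the annotated start from RefSeq (GRCm38.p6), written 5′ to 3′ on the minus strand. Capitals mark matches on either strand to any of 4 motifs: the TATA box (TATAAA), AP-1 (TGANTCA), the NF-kB consensus and PU.1 (GAGGAA). The Il1b window is chr2:129371140-129371389 and the Il1a window chr2:129309973-129310222.
Il1b: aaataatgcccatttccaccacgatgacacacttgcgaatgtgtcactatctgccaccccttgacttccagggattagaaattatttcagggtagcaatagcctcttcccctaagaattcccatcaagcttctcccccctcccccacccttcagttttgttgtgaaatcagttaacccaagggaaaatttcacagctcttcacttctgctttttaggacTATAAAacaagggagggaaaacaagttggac
Il1a: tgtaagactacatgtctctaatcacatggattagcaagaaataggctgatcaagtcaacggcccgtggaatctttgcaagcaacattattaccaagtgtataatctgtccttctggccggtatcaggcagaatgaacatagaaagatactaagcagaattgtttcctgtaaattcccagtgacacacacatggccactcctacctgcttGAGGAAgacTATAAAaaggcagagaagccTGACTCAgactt
Both windows held a TATA box at nearly the same place, 31 to 26 bases before the start in Il1b and 32 to 27 bases before it in Il1a. Il1a also held the AP-1 letters, 12 to 6 bases before the start, and the PU.1 letters, 41 to 36 bases before it. Of 32851 RefSeq promoter windows of this length, 12.4% held the TATA letters, 6.75% the AP-1 letters, 0.98% the NF-kB letters and 23.3% the PU.1 letters. These matches describe letters and do not show that a factor binds.

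Il33, the nuclear alarmin that acts through ST2, lies on chromosome 19 (29925114 to 29960718). It had 14.9, 12.97 and 19.0 FPKM in the atorvastatin libraries, against 22.7, 14.6 and 20.3 FPKM in the vehicle libraries. The atorvastatin values were mostly in the lower part of the range, but the groups overlapped, and the difference of -0.28 (SE 0.202) had an adjusted p of 0.750 in limma. Il18, on chromosome 9 (50554827 to 50581840), had 3.54, 5.36 and 2.53 FPKM with atorvastatin, against 4.28, 2.51 and 4.61 FPKM with vehicle. Its highest value was in atorvastatin library 2, its lowest in vehicle library 2, and the difference was -0.01 (SE 0.265, adjusted p = 0.996 in limma). The 95% interval of that difference, -0.64 to 0.62, leaves room for a moderate change in either direction.

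The antagonist gene Il1rn (chromosome 2, 24336853 to 24351494) had the widest range over the 6 libraries of the 10 genes. It had 16.2, 5.93 and 7.83 FPKM in the atorvastatin libraries, against 14.7, 6.46 and 9.29 FPKM in the vehicle libraries. Its highest and lowest values, 2.73-fold apart, were both in atorvastatin libraries, and the groups overlapped throughout. The difference was -0.07 with a 95% interval of -1.0 to 0.87 (adjusted p = 0.975 in limma), the widest interval among the 10 genes. The ratio of Il1b to Il1rn, agonist over antagonist, was 7.53, 24.3 and 15.5 in the atorvastatin libraries, against 12.7, 23.2 and 19.3 in the vehicle libraries. That ratio followed Il1rn: it was lowest in both libraries where Il1rn was highest, and the groups overlapped. Il1rn has 6 annotated transcripts and is known to yield secreted and intracellular forms, and gene-level FPKM do not separate them.

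**Figure D2:**
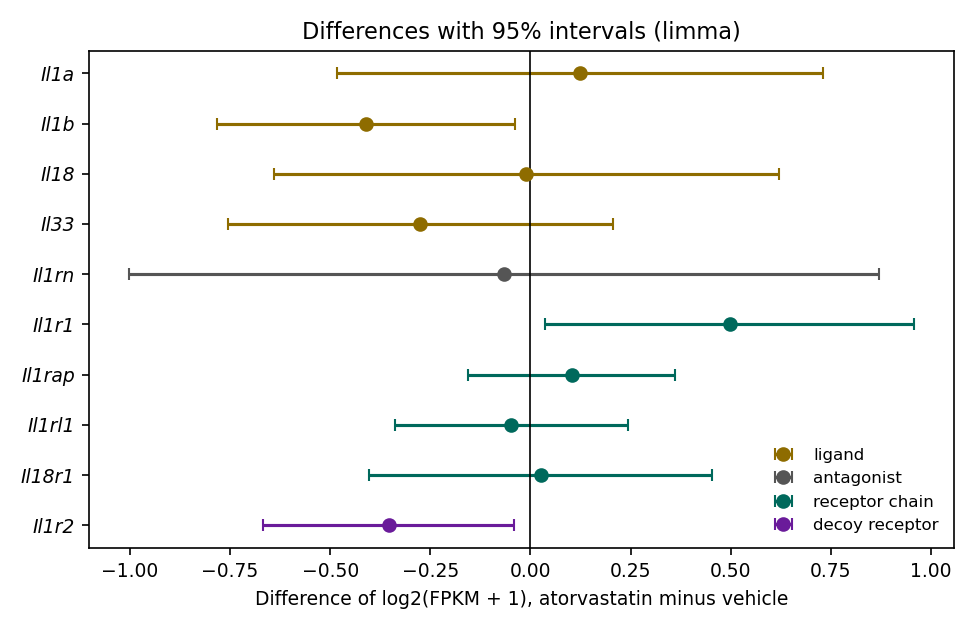
Difference of log2(FPKM + 1), atorvastatin minus vehicle, with its 95% interval from limma, for each gene grouped by role. The intervals of Il1b, Il1r1 and Il1r2 exclude 0 before adjustment over all genes, and that of Il1rn is the widest, from -1.0 to 0.87.

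Among the receptors, Il1r1 (ENSMUSG00000026072, chromosome 1, 40225080 to 40317257) encodes the signalling chain that binds IL-1 alpha and IL-1 beta. It had 26.1, 20.5 and 30.9 FPKM in the atorvastatin libraries, against 16.98, 15.2 and 21.7 FPKM in the vehicle libraries. Atorvastatin libraries 1 and 3 were above every vehicle library, while atorvastatin library 2 was below vehicle library 3, so the groups overlapped by that pair. The difference was 0.50 (SE 0.194, 95% interval 0.04 to 0.96), with an unadjusted p of 0.0381 and an adjusted p of 0.693 in limma. A higher level with atorvastatin at that unadjusted threshold was seen in 3.13% of all tested genes. Leaving out single libraries moved the difference between 0.36 and 0.65, the lowest without atorvastatin library 3.

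Il1r2, the decoy, is the neighbour of Il1r1 on the same strand (chromosome 1, 40074079 to 40125231), with a gap of 99848 bp between them. It had 14.8, 13.7 and 11.9 FPKM in the atorvastatin libraries, against 16.5, 16.3 and 19.8 FPKM in the vehicle libraries. All 3 atorvastatin values were below the lowest vehicle value, and vehicle library 3 was the highest. The difference was -0.35 (SE 0.132, 95% interval -0.67 to -0.04), with an unadjusted p of 0.0320, the smallest of the 10 genes, and an adjusted p of 0.693 in limma. A lower level at that unadjusted threshold was seen in 4.04% of all tested genes, and in Il1b and Il1r2 of the family. Without atorvastatin library 3 the difference was -0.27 and without vehicle library 3 also -0.27.

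Set against each other in the same library, which removes any scaling of libraries, decoy and receptor separated the groups. The ratio of Il1r2 to Il1r1 was 0.568, 0.670 and 0.386 in the atorvastatin libraries, against 0.972, 1.07 and 0.911 in the vehicle libraries. Vehicle libraries thus held about equal FPKM of both, and in each atorvastatin library Il1r1 exceeded Il1r2. The mean with atorvastatin was 0.549 times that with vehicle, and between 0.484 and 0.628 times when single libraries were left out. No test is given for the ratio, because the genes were chosen with earlier results of these data known. The 2 transcripts differ in length: the longest annotated one has 1419 nt for Il1r2 and 5819 nt for Il1r1. Between the groups, levels trended with transcript length over all protein-coding genes. This trend amounted to -0.17 of the difference of -0.90 between the mean log2 ratios of the groups. The cells that hold each transcript cannot be resolved in bulk RNA, where fewer cells of a type and less RNA per cell cannot be told apart.

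**Figure D3:**
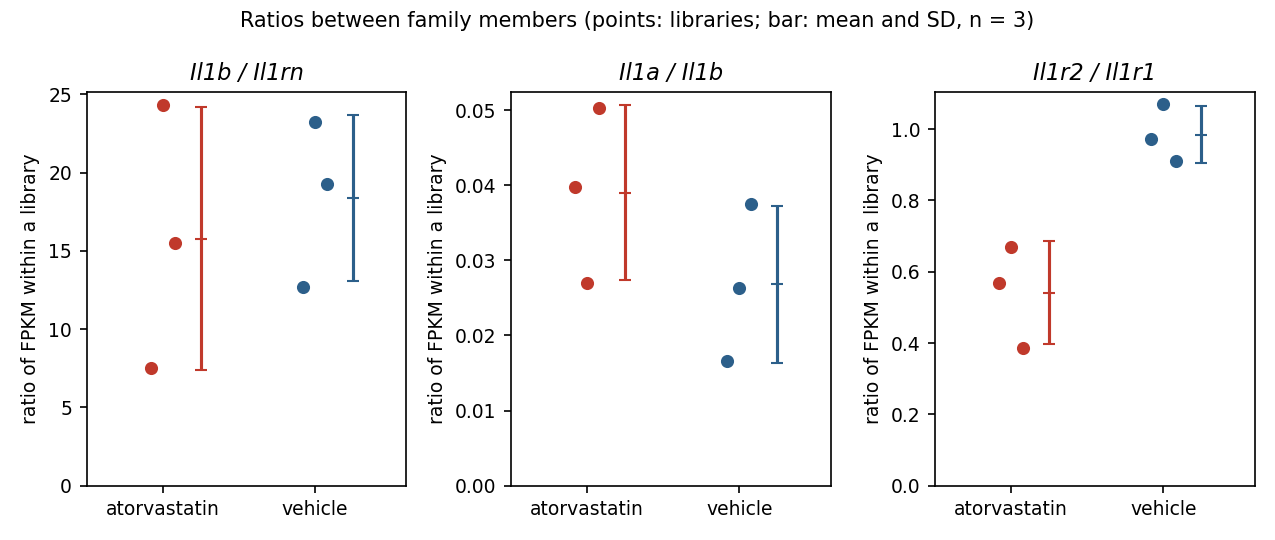
Ratios of FPKM between family genes within each library, by group, with mean and SD (n = 3). Only Il1r2 to Il1r1 separates the groups among the 3 ratios, at 0.541 with atorvastatin and 0.986 with vehicle.

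The start regions of this pair are shown because the 2 neighbours differed in opposite directions. They are again the 250 bases before each RefSeq start (GRCm38.p6), on the plus strand, at chr1:40085843-40086092 for Il1r2, and at chr1:40224830-40225079 and chr1:40266336-40266585 for the 2 starts of Il1r1. The Il1r2 start lies inside the gene body that the files give.
Il1r2: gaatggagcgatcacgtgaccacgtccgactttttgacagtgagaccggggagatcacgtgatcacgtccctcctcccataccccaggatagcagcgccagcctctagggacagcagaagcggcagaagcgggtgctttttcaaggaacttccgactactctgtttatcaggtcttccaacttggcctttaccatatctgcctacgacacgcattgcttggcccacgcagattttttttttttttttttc
Il1r1, first start: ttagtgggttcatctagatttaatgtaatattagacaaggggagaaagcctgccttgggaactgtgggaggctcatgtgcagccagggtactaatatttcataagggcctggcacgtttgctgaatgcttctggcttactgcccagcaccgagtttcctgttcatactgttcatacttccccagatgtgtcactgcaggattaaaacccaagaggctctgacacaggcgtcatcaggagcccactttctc
Il1r1, second start: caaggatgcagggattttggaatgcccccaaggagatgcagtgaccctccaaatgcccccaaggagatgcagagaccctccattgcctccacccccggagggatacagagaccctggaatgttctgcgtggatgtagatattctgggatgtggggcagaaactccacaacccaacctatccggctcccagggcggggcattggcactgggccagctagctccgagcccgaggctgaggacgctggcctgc
None of the 4 motifs searched in Il1a and Il1b occurred in these 3 windows, which is why no letter is in capitals. This says only that those letters are not in these windows.

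The other receptor chains had similar levels in both groups. Il1rl1, which encodes ST2 (chromosome 1, 40429570 to 40448148), had 6.99, 7.51 and 5.86 FPKM in the atorvastatin libraries, against 7.04, 7.55 and 6.5 FPKM in the vehicle libraries. Libraries 1 and 2 of the groups were nearly equal, and the difference was -0.05 (SE 0.123, 95% interval -0.34 to 0.24, adjusted p = 0.934 in limma). The gene yields a soluble decoy form as well as the membrane receptor, and gene-level FPKM do not separate them. Il18r1, the ligand-binding chain of the IL-18 receptor (chromosome 1, 40465552 to 40500854), had 6.79, 8.12 and 8.07 FPKM with atorvastatin, against 7.94, 9.32 and 5.62 FPKM with vehicle, a difference of 0.03 (SE 0.180, adjusted p = 0.979 in limma). The vehicle libraries enclosed all 3 atorvastatin values. Il1rap (chromosome 16, 26581704 to 26730117) had 2.22, 2.08 and 2.30 FPKM with atorvastatin, against 2.12, 1.74 and 2.09 FPKM with vehicle. Its groups overlapped narrowly and its difference was 0.10 (SE 0.109, adjusted p = 0.824 in limma). An antisense gene, Gm20319, overlaps exons of Il1rap.

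Il1r2, Il1r1, Il1rl1 and Il18r1 stand in a tandem cluster of 6 receptor genes on the plus strand of chromosome 1, with Il1rl2, the receptor for IL-36, and Il18rap, the second chain of the IL-18 receptor. Il1rl2 had 3.85, 3.45 and 4.71 FPKM in the atorvastatin libraries, against 3.46, 2.45 and 0.890 FPKM in the vehicle libraries. All but atorvastatin library 2, which was just below vehicle library 1, were above the vehicle values. Its difference of 0.69 (SE 0.307) had an unadjusted p of 0.0593 and an adjusted p of 0.696 in limma. Its gene body starts 7352 bp after that of Il1r1 ends. Il18rap had 6.24, 8.09 and 6.80 FPKM with atorvastatin, against 7.71, 9.15 and 6.37 FPKM with vehicle, a difference of -0.12 (SE 0.156, adjusted p = 0.868 in limma). Along the cluster, positive differences stood at Il1r1 and Il1rl2, a negative one at Il1r2 upstream, and differences near 0 at the 3 genes downstream.

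**Figure D4:**
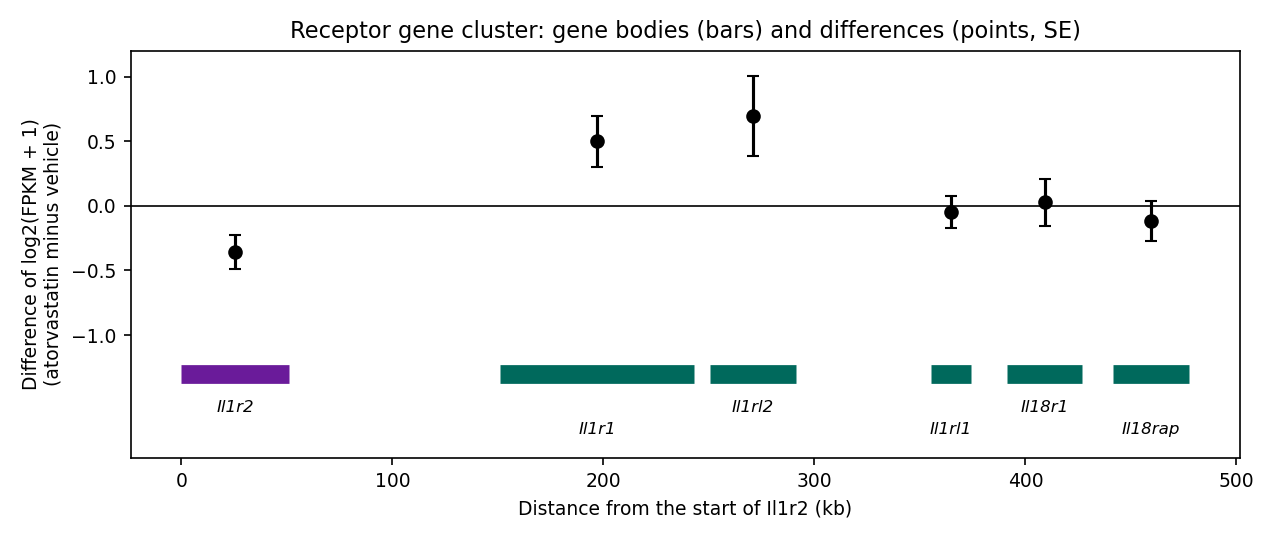
Gene bodies of the receptor cluster as distance in kb from the start of Il1r2 (bars) and, above each, its difference of log2(FPKM + 1), atorvastatin minus vehicle, with SE. Il1r1 (0.50) and Il1rl2 (0.69) lie above 0, Il1r2 (-0.35) below it, and Il1rl1, Il18r1 and Il18rap near it.

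Further family genes were mostly low. The inhibitors Il18bp, which captures IL-18, and Sigirr, which dampens receptor signalling, had differences of -0.06 (SE 0.156) and -0.03 (SE 0.222), with adjusted p of 0.940 and 0.982 in limma. Sigirr had 5.41, 5.47 and 5.9 FPKM with atorvastatin, against 4.97, 8.61 and 4.29 FPKM with vehicle. Il18bp had 2.23, 2.07 and 2.56 FPKM with atorvastatin, against 2.27, 1.93 and 3.15 FPKM with vehicle. Il36g, the only IL-36 ligand gene of those matched that was not at 0 throughout, had 0.760, 0.410 and 0.580 FPKM with atorvastatin, against 1.08, 1.09 and 0.540 FPKM with vehicle. It did not pass the filter, and the exact two-sided permutation test gave p = 0.3, where 0.1 is the smallest that 3 against 3 libraries allow. Il36a and Il36b were listed at 0 in all 6 libraries, Il1f10 in all but atorvastatin library 2 (0.0900 FPKM), and Il1rapl1 and Il1rapl2 did not exceed 0.0200 FPKM.

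Upstream of the ligands, genes for precursor processing and release showed no shared direction. Of 20 genes, 11 were tested, 6 with positive and 5 with negative differences and a median of 0.01, against -0.02 over all tested genes. Casp1, which cleaves both precursors, had 7.22, 7.81 and 7.0 FPKM with atorvastatin, against 8.63, 7.95 and 11.6 FPKM with vehicle, wholly lower with a difference of -0.30 (SE 0.149, adjusted p = 0.696 in limma). The DNA sensor gene Aim2 alone of the list reached an unadjusted p under 0.05 (-0.40, SE 0.128, unadjusted p = 0.0167, adjusted p = 0.693 in limma). It had 6.06, 5.03 and 5.11 FPKM with atorvastatin, against 8.57, 7.05 and 6.80 FPKM with vehicle. The most abundant genes of the list, Casp4 and Casp8, had differences of 0.05 (SE 0.273) and -0.22 (SE 0.135). Casp1 was named after its values were seen.

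Downstream of the receptors, all 20 signalling genes were tested, and 0 of them reached an unadjusted p under 0.05 in limma or passed over all genes. Their median difference was 0.02, with 12 positive and 8 negative. Myd88, the adaptor common to the family's receptors, had 67.8 ± 11.8 FPKM with atorvastatin and 63.5 ± 10.1 FPKM with vehicle (SD, n = 3 each), and the NF-kB subunit gene Rela had 52.5 ± 6.31 FPKM with atorvastatin and 57.6 ± 1.90 FPKM with vehicle. The groups overlapped in both. Of 20 genes known to be induced by IL-1, 19 were tested. Of these, 15 had positive differences and 4 negative ones, with a median of 0.15, whereas 47% of all tested genes had positive differences. None of the 15 reached an unadjusted p under 0.05 in limma, and the groups overlapped in each of them. The summed level of the 20 genes overlapped too (1778 to 2718 FPKM with atorvastatin and 1411 to 2778 FPKM with vehicle). These genes may vary together, so the count of directions carries no test. The most abundant gene of the list, Ccl2, a monocyte chemokine, had 599.8, 323 and 468 FPKM with atorvastatin, against 449, 261 and 619 FPKM with vehicle. Cxcl1, a neutrophil chemokine and the next in level, had 465, 294 and 474 FPKM with atorvastatin, against 377, 217 and 604 FPKM with vehicle. In both genes atorvastatin library 2 and vehicle library 2 were the lowest of their groups, and the groups overlapped.

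Of the 4 negative differences, those of Il6 (-0.007) and Csf3 (-0.018) were near 0 with overlapping groups, and those of Csf2 and Lcn2 came with groups that did not overlap. Il6 and Csf3 are named after their values were seen. Csf2, which encodes GM-CSF, had 21.5, 19.4 and 23.3 FPKM with atorvastatin, against 35.8, 32.1 and 38.0 FPKM with vehicle (-0.70, SE 0.124, unadjusted p = 8.86e-04, adjusted p = 0.627 in limma). Lcn2, the iron-binding lipocalin-2, had 11.2, 9.41 and 10.1 FPKM with atorvastatin, against 14.1, 12.98 and 23.7 FPKM with vehicle (-0.63, SE 0.223, unadjusted p = 0.0270, adjusted p = 0.693 in limma). Of 12 tested genes that respond to IL-18 or IL-33, 10 had negative differences with a median of -0.06, and 0 reached an unadjusted p under 0.05. Csf1 had the highest level among them (136 ± 21.6 FPKM with atorvastatin and 112 ± 12.7 FPKM with vehicle, SD, n = 3 each), and Il10 followed at 38.8 ± 7.59 and 39.0 ± 9.25 FPKM.

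Cell markers moved between the groups too, and their part in the differences above was not tested. The 6 leukocyte markers all had negative differences (median -0.31), with a summed level of 1844 to 1987 FPKM with atorvastatin and 2182 to 2714 FPKM with vehicle, dominated by Cd74. The groups did not overlap in 4 of the 6, but overlapped in Ptprc (-0.14) and Laptm5 (-0.18). Of the neutrophil markers 4 of 10 were tested, all with negative differences, and their sum was 6.53 to 10.7 FPKM with atorvastatin and 9.42 to 16.9 FPKM with vehicle. Ly6g, which defines neutrophils, did not pass the filter. It had 0, 0.26 and 0 FPKM with atorvastatin, against 0.10, 0.18 and 0.32 FPKM with vehicle, and the groups overlapped. Of the other untested neutrophil markers, Cxcr2, Mmp8 and Ltf had lower means with atorvastatin. Camp (0.11 against 0.05 FPKM) and Cxcr1 (0.29 against 0.23 FPKM) had higher ones. Macrophage and monocyte markers had 11 of 13 positive differences, and their sums overlapped (281 to 345 FPKM with atorvastatin and 207 to 379 FPKM with vehicle). So did those of fibroblasts, with 5 of 8 positive differences (1126 to 1467 FPKM with atorvastatin and 1144 to 1516 FPKM with vehicle). Summed B cell markers did not overlap (274 to 289.8 FPKM with atorvastatin and 349 to 454 FPKM with vehicle), with 8 of 8 negative differences, nor did those of T and NK cells, with 8 of 9 negative (75.3 to 92.2 and 94.5 to 112 FPKM in the same order), or of dendritic cells, with 8 of 10 negative (169 to 185 and 187 to 240.0 FPKM). The dendritic cell sum was mostly Ccr7 (122 FPKM on average with atorvastatin and 154 FPKM with vehicle), and the groups overlapped in each of the 10 dendritic cell markers, with differences of 0.001 in Zbtb46 and 0.045 in Irf8. Sums of mast cell, regulatory T cell, ILC2, endothelial and smooth muscle markers overlapped, with negative differences in 6 of 8, 3 of 6, 7 of 8, 3 of 8 and 0 of 7 genes. All 7 tested epithelium markers had negative differences, with sums of 22.1 to 41.1 FPKM with atorvastatin and 35.1 to 46.0 FPKM with vehicle. All 11 genes of dissociation and heat shock had positive differences (median 0.38), and their sums did not overlap (6770 to 9393 FPKM with atorvastatin and 6015 to 6350 FPKM with vehicle). Only in 4 of the 11 did the groups not overlap. The sum was led by Hspa1b and Hspa1a, with means of 1984 and 1791 FPKM over all libraries.

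Measured relative to such markers in the same library, the 3 genes gave different results. Relative to the mean log2(FPKM + 1) of the leukocyte markers, Il1b differed by -0.10 and Il1r2 by -0.04 between the groups, and both overlapped. Relative to macrophage and monocyte markers they differed by -0.63 and -0.57 with no overlap, and relative to fibroblast markers by -0.53 with overlap and by -0.47 without. Il1r1 differed by 0.81 relative to leukocyte markers and by 0.38 relative to fibroblast markers, without overlap in either case, and by 0.28 relative to macrophage and monocyte markers, with overlap. The lack of overlap relative to leukocyte markers was not particular to Il1r1. It was also seen in Il1rap (0.42), Il18r1 (0.34) and Il1rl1 (0.27), whose own differences were 0.10, 0.03 and -0.05. Relative values were made for 10 marker lists, not for those of B cells, regulatory T cells and ILC2, so the ranges that follow do not cover these. Over the 10 lists the difference of Il1r1 was positive in each, from 0.26 to 0.96, and the groups did not overlap in 5 of them. For Il1b it lay between -0.65 and 0.05 with no overlap in 2 of 10 lists, and for Il1r2 between -0.60 and 0.11 with no overlap in 5 of 10. These relative values were chosen after the data were seen and carry no test, and the share of all genes without overlap on this measure is not given.

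**Figure D5:**
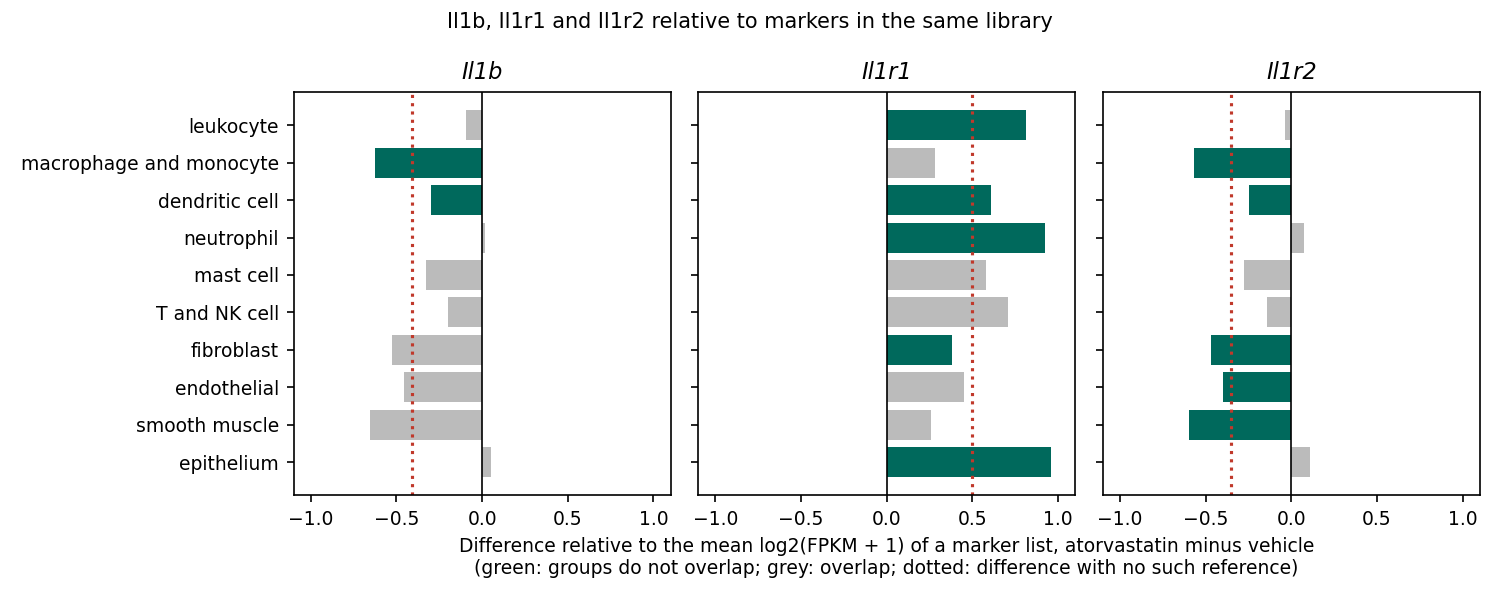
Differences of Il1b, Il1r1 and Il1r2, atorvastatin minus vehicle, relative to the mean log2(FPKM + 1) of each of 10 marker lists in the same library, in green where the groups do not overlap and in grey where they do, with a dotted line at each gene's own difference. Lists of B cells, regulatory T cells and ILC2 are not among the 10. The bars of Il1r1 are positive throughout (0.26 to 0.96), while those of Il1b and Il1r2 run from about 0 against leukocyte, neutrophil or epithelium markers to about -0.6 against macrophage or smooth muscle markers. Each bar is the gene's own difference less that of the list's mean, so the bars of a gene are not separate observations.

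The tested genes whose profile over the 6 libraries was nearest to that of Il1b, by the root mean square difference of their deviations on the log2 scale, were Serpinb9, a granzyme B inhibitor (0.0588), Cldn1 (0.0589), Zfp991 (0.0653), Cd53, a leukocyte tetraspanin (0.0655), and Gm13493 (0.0707). For scale, the deviations of Il1b itself had a root mean square of 0.241. Nearest to Il1r2 were Rpl32 (0.0325), Sumf2 (0.0366), Ap2s1 (0.0417) and Rplp1 (0.0433), of which Rpl32 and Rplp1 encode ribosomal proteins. The longest transcript of Il1r2 (1419 nt) and of Il1b (1356 nt) were among the shorter ones of the family. Among protein-coding genes within 10% of these lengths the median difference was -0.10 for Il1r2 and -0.11 for Il1b, and within 10% of the length of Il1r1 it was 0.05. After the length trend was removed from each library, the differences were -0.31 in Il1b (unadjusted p = 0.0917), -0.26 in Il1r2 (0.0508) and 0.43 in Il1r1 (0.0743), and 0 of the 10 genes had an unadjusted p under 0.05 in limma.

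Facts of the libraries bear on all of these values. Summed FPKM ran from 355787 to 456064, and immunoglobulin genes took 27.9% to 47.9% of it in the atorvastatin libraries and 30.4% to 38.4% in the vehicle libraries, highest in atorvastatin library 2. Low values of single-exon genes clustered at a step in each library, which, if it stands for 1 fragment, implies totals of about 18100000 to 21100000 fragments in the atorvastatin libraries and 15900000 to 21500000 fragments in the vehicle libraries. A second cluster lay 2.0 times lower in each library, 0.49 to 0.82 times as high as the first in 5 libraries and 1.05 times as high in vehicle library 3. If that one stands for 1 fragment, the totals and the fragment numbers that follow are 2.0 times larger. On the first step roughly 40 to 100 fragments per library stood behind Il18, the fewest of the family, and roughly 2984 to 5225 behind Il1b. Vehicle library 3 correlated least with the rest (mean r across genes 0.944, against 0.957 to 0.961 for the others). Without it Il1b differed by -0.38, Il1r2 by -0.27 and Il1r1 by 0.64.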

How the data were processed

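The authors deposited FPKM per gene for 6 libraries of total RNA, 1 value column each per the file headers, with 2 decimals. The submitters' processing notes name FastQC 0.11.2, Bowtie and the build mm10. No source used here states the quantifier, its annotation or whether strand was used. Symbols came from GENCODE mouse release 21, which matched all but 260 of 55401 gene IDs, and 214 of 215 listed symbols were found. Coordinates are those of the files.

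As the files hold FPKM and no counts, limma-trend (limma 3.58.1, R 4.3.3) was run on log2(FPKM + 1) for the 13590 genes that reached 1 FPKM in 3 or more libraries, atorvastatin minus vehicle, with Benjamini-Hochberg adjustment over all of them. Such differences understate changes of low genes. The fit was tested on simulated data, to see that known differences were recovered. The simulated noise was independent for each gene, so this does not bear on differences that genes of a library share. Fragment counts per gene were not recovered, so precision rests on 3 libraries per group.

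The members and gene lists were chosen with earlier results of these data known. Named besides the members were the other family genes, the 2 most abundant genes of each list of processing, signalling or response genes and each of their genes at an unadjusted p under 0.05, plus the 5 genes nearest in profile to the most abundant member and to that with the smallest p, of which 1 is not reported here. Marker lists are given as counts and sums, and the single markers named beside them were added after the data were seen. Alternatives covered the pseudocount, the filter, 3 library scalings, array weights, robust variance, the replicate block and leaving out libraries. Removing the length trend (loess per library) and leaving out 2 libraries together were added after the data were seen.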

Additional observations from a re-analysis of the deposited data

How the results depend on the processing

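Il1b, Il1r2, Il33 (lower) and Il1r1, Il1rap (higher with atorvastatin) kept their direction under all 18 alternatives, with differences from -0.55 to -0.31, -0.42 to -0.26, -0.45 to -0.11, 0.36 to 0.79 and 0.04 to 0.17, and 0 of the 10 genes passed the false discovery rate in any. The lowest adjusted p in limma was 0.0854, in Il1b and Il1r1 with array weights. All genes past that rate numbered 0, but 4 with array weights, and 0 to 3 when single libraries were left out (1 without atorvastatin library 1 and 3 without atorvastatin library 3). The count of family genes at an unadjusted p under 0.05 (3) was 0 with equal sums per library or the length trend removed. It was 1 with median-of-ratios scaling or equal sums without immunoglobulin genes, and 5 with array weights, where Il1a and Il33 were added. It was 0 to 2 when single libraries were left out. Over all genes the count of 974 was 446 with equal sums, 1761 with no filter, 3413 with array weights and 1734 with 2 libraries against 2. It was 475 to 1161 when single libraries were left out.

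The direction turned in genes near 0. Equal sums gave 0.011 in Il1rl1 and 0.038 in Il18. Equal sums without immunoglobulin genes gave 0.017 in Il1rn, 0.034 in Il1rl1 and 0.069 in Il18, and median-of-ratios scaling gave 0.013 in Il18. Array weights gave -0.084 in Il18r1. Removing the length trend gave 0.14 in Il18 and 0 in Il18r1, and 2 libraries against 2 gave 0.19 in Il1rn and -0.19 in Il18r1. Il1a kept its direction with array weights (0.498) and with 2 libraries against 2 (0.515), its largest differences. Leaving out single libraries gave -0.072 to 0.383 in Il1a, -0.44 to 0.22 in Il1rn, -0.12 to 0.04 in Il1rl1, -0.23 to 0.19 in Il18 and -0.15 to 0.17 in Il18r1. The cause was not tested. Scaling moved the median difference of all genes by at most 0.08. The mean ratio of Il1r2 to Il1r1 with atorvastatin was 0.484 to 0.628 times that with vehicle over the alternatives run on it.

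With the replicate number as a block, 1 of the 10 genes had an unadjusted p under 0.05 in limma (Il1r1, 0.00751) and 0 passed the false discovery rate. Deviations of same-numbered libraries correlated at -0.11, 0.14 and -0.02, and those of differently numbered ones at -0.16 to 0.19. With 3 libraries a group, these values cannot settle whether same-numbered libraries were handled together. With the block the SE fell in Il1rn (0.394 to 0.125), Il1r1 (0.194 to 0.112), Il1a, Il1rl1, Il33 and Il18r1. It rose in Il1b (0.157 to 0.177), Il18 (0.265 to 0.313), Il1r2 and Il1rap. With 3 libraries a group, the intervals were widest in Il1rn, Il18 and Il1a, and the part of depth in this was not tested. On the first step Il1rn had roughly 294 to 747 fragments per library. Il1rap, with the narrowest interval, had roughly 140 to 203.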
